A study of Zea mays with 48 samples.

Results

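The B73 x Mo17 F1 hybrid (BM, with B73 as the female parent) was represented by a list of 2796 ZmCCA1 binding peaks, out of 10136 peaks listed for 4 maize genotypes. All peaks of the BM list were members, and the choice used none of their values. The other lists, used here only for context, held 1874 peaks for the reciprocal hybrid Mo17 x B73 (MB), 3364 for the inbred B73 and 2102 for the inbred Mo17. Chromatin came from aerial tissues of seedlings at 5 days after planting, grown under 16 h of light and 8 h of dark and collected at zeitgeber time (ZT, hours after dawn) 3, 9 and 15. Each time point of BM had 2 biological replicates, each with a ChIP and an input library, which makes 12 BM libraries out of 48 in the series. No plants were treated, mutant or transgenic. The antibody, labelled ZmCCA1b, was raised against the MYB domain of ZmCCA1 and could also recognize a full-length ZmCCA1a, so the ChIP signal cannot be divided between the homologs.

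CCA1 (CIRCADIAN CLOCK ASSOCIATED1) is a MYB transcription factor that accumulates around dawn and is a core part of the plant circadian clock. In Arabidopsis it binds the evening element and the CCA1-binding site, and represses evening-expressed clock genes such as GIGANTEA and TOC1. GIGANTEA, which maize carries as gi1 and gi2, links the clock to light input and flowering.

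Each BM peak carried 1 log2(ChIP/Input) value per time point, in which 1 unit is a doubling of ChIP signal over input. The replicates had been combined before deposit, so no value had a replicate error, no single peak could be tested for a difference between time points, and the read depth behind a peak was unknown. The study states a high Pearson correlation of read coverage between replicates. Its own replicate plot shows a lower likeness of the ZT15 ChIP replicates in BM and MB than elsewhere. The part of that unevenness in the ZT15 values given here was not tested.

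Among the genes for which the study designed binding probes or ChIP primers, the clock targets gi1 and gi2 had BM peaks, and their oligonucleotides are given below. The gi1 probe is a promoter fragment that the study used to test binding of recombinant ZmCCA1b in vitro. It was not a test at the peaks listed here, which lay inside the genes. In the gi1 binding probe, capitals mark the CCA1-binding site AAAAATCT. In its mutated counterpart, capitals mark the replaced bases. The primers amplified a stretch of each gene after ChIP. No genome was used here, so the place of these oligonucleotides within the peaks was not determined.
gi1 probe: gcatcgcggaAAAAATCTttttctcgcc
gi1 mutated probe: gcatcgcggaaaaaaGAGttttctcgcc
gi1 forward primer: gaacttccatttcagccatcc
gi1 reverse primer: gaaataatcaaggtgacggg
gi2 forward primer: cagtgttgattacaggtgctc
gi2 reverse primer: gattctgacatgcttggtagc

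Binding in BM was highest at ZT3 in most peaks and lowest at ZT15 in most peaks, although fewer peaks met both. Over the 2796 peaks the median log2(ChIP/Input) was 1.79 (ZT3), 1.44 (ZT9) and 0.82 (ZT15), with interquartile ranges of 1.26 to 2.13, 0.94 to 1.86 and 0.44 to 1.22. A value below 0, which means less signal in ChIP than in input, was listed for 98 peaks at ZT3, 108 at ZT9 and 220 at ZT15. Signal was highest at ZT3 in 1768 peaks (63.2%), at ZT9 in 869 (31.1%) and at ZT15 in 159 (5.69%), and no peak had a tie. It was lowest at ZT15 in 1943 peaks (69.5%). Across peaks, Pearson's r was 0.08 between ZT3 and ZT9, 0.19 between ZT3 and ZT15 and 0.20 between ZT9 and ZT15. Spearman's rho was -0.06, 0.18 and 0.17 for the same pairs, over 2796 peaks that share libraries. The list joins peaks called at any time point, so a peak could enter through a single high value. That selection lowers such correlations by itself, so they do not show how loosely the levels are related.

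The 6 possible orders of the time points were filled unevenly. A steady decline with ZT3 above ZT9 above ZT15 was listed for 1311 peaks (46.9%), whose median values were 2.04, 1.34 and 0.71. A midday maximum with ZT3 second was listed for 632 peaks (22.6%), with medians of 1.38, 1.96 and 0.68 at ZT3, ZT9 and ZT15. A trough at ZT9 with ZT3 highest was listed for 457 peaks (16.3%), with medians of 2.01, 0.68 and 1.08. The order with ZT9 highest and ZT3 lowest held 237 peaks (8.48%). The remaining orders, with ZT15 highest, held 86 and 73 peaks. The second step was the larger, with a median of 0.40 for ZT3 minus ZT9 and 0.52 for ZT9 minus ZT15. The medians of the list differed by 0.36 over the first step and by 0.61 over the second. A drop of at least 1 was listed for 648 peaks over the first step and for 748 over the second.

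**Figure D1:**
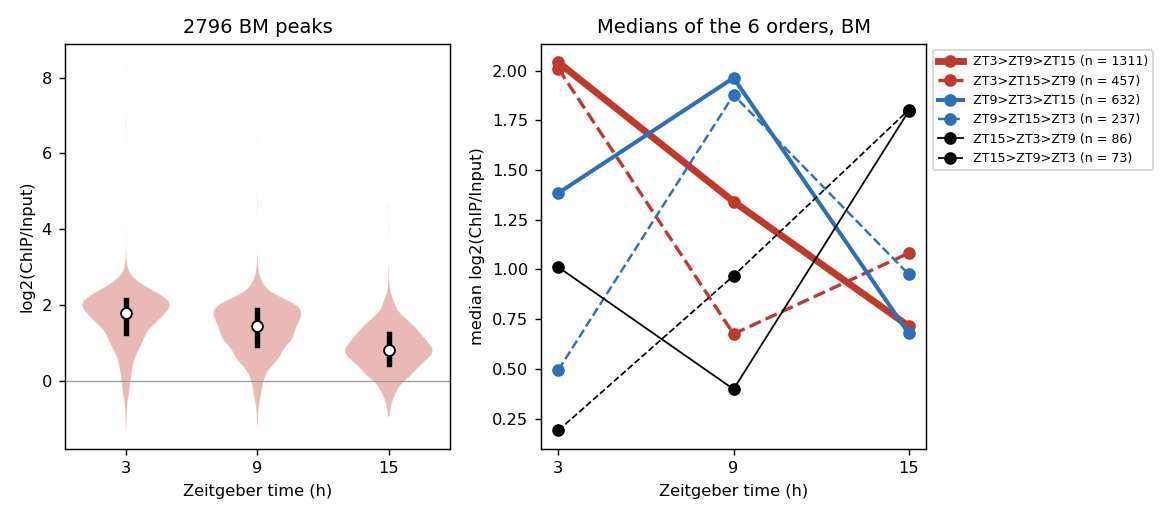
Left, violins of log2(ChIP/Input) for the 2796 BM peaks by zeitgeber time (hours after dawn), with the median as a white point and the interquartile range as a black bar. Right, the median log2(ChIP/Input) of each of the 6 orders of the time points, with line width scaled to the number of peaks. The medians of all peaks are 1.79, 1.44 and 0.82, and the steady decline is the order with the most peaks (1311).

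The swing of a peak, its highest minus its lowest value, had a median of 1.27 (interquartile range 0.88 to 1.68, range 0.02 to 3.76). As peaks called at any time point were joined into the list, the selection itself favours larger swings, and its part was not tested. A swing of at least 1, that is a difference of at least 2-fold within the day, was listed for 1895 of 2796 peaks (67.8%). It reached 1.5 in 994 peaks, 2 in 335 and 3 in 10, and stayed under 0.25 in 41. The peaks nearest the threshold were assigned to GRMZM2G348866, with a swing of 0.9995, and to GRMZM2G042288, with a swing of 1.001. When each time point was centred on its own median, which subtracts 1 constant per time point from every peak, 1193 peaks (42.7%) had a swing of at least 1. From ZT3 and ZT9 alone, without ZT15, 956 peaks (34.2%) differed by at least 1.

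The largest swing belonged to a peak with no assigned gene at chr1:62370845-62371897 (AGPv2 coordinates, as are all others given here), where the values over the day were 8.40 (ZT3), 6.39 (ZT9) and 4.64 (ZT15). It was also the strongest peak of the list and the one with the largest ZT3 minus ZT15 difference (3.76). At the same position MB had 8.46, 6.52 and 6.28, B73 had 7.25, 6.47 and 6.30, and Mo17 had 7.08, 6.94 and 5.78. The BM value at ZT15 was thus the lowest of the 4 lists at this site, whereas its ZT3 value lay within 0.1 of MB.

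The next largest swings were of narrow peaks that crossed 0. The peak inside GRMZM2G019879 (chr7:1974265-1974946) had -1.22 at ZT3, 2.19 at ZT9 and 0.73 at ZT15, a swing of 3.41. Inside GRMZM2G028700 (chr1:174637199-174637868) the values were 2.54, -0.84 and 0.20. A peak with no gene at chr1:271195851-271196288 had 0.28, -1.19 and 2.01, and the peak inside GRMZM2G151580 (chr10:63048810-63049222) had -1.15, 2.04 and 0.52. These 4 peaks therefore had their maximum at 3 different times of day, and all 4 were listed below input at 1 time point. None of the other lists held an overlapping peak at any of them. Among all BM peaks, 44.3% likewise overlapped no other list.

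At the other end, 5 peaks were flat to within 0.09. A peak with no gene at chr5:123929469-123929866 had 2.04, 2.05 and 2.03 at ZT3, ZT9 and ZT15. At GRMZM5G878530 (WNK6, a WNK family protein kinase) the values were 1.501, 1.523 and 1.495. Flat peaks were also listed at the start of GRMZM2G162167 (1.56, 1.55 and 1.60), at the start of GRMZM2G142109 (1.21, 1.28 and 1.21) and inside GRMZM2G011636 (1.03, 0.94 and 0.97). Their levels of about 1 to 2 lay within the common range of the list.

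The ZT3 minus ZT15 difference had a median of 0.87 in BM (interquartile range 0.41 to 1.36, range -2.91 to 3.76). It was above 0 in 2400 of 2796 peaks (85.8%). It was at least 1 in 1200 peaks (42.9%) and at least 2 in 160, and it was -1 or less, that is higher at ZT15, in 105 peaks (3.76%). The peaks nearest the threshold of 1 were assigned to GRMZM2G366150 and GRMZM2G015795, with differences of 0.9998 and 1.0002. With each time point centred on its median, only 173 peaks (6.19%) retained a difference of at least 1 and the median difference became -0.11, close to 0 as the centring makes it. Without ZT15, 648 peaks (23.2%) were lower by at least 1 at ZT9 than at ZT3.

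Beside the chromosome 1 peak, the largest ZT3 minus ZT15 differences were of peaks that lay below input at ZT15. The peak inside GRMZM2G035268 (chr4:84108373-84109088) had 2.47 at ZT3, 0.58 at ZT9 and -0.70 at ZT15, a difference of 3.17. This gene encodes GAPN, the non-phosphorylating glyceraldehyde-3-phosphate dehydrogenase of the cytosol, which makes NADPH. The peak inside GRMZM5G857930 (chr10:148117708-148118588) had 2.45, 1.39 and -0.60. Inside GRMZM2G149321 (chr3:221239218-221239660) the values were 2.62, 0.75 and -0.36, and at a peak with no gene at chr5:4781548-4782144 they were 2.25, 1.38 and -0.72. All 4 followed the order ZT3 above ZT9 above ZT15. Only the last overlapped a peak of another list, in MB, where the values were 0.76, 2.64 and 0.25. Over the whole BM list, 44.3% of peaks overlapped no other list.

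**Figure D2:**
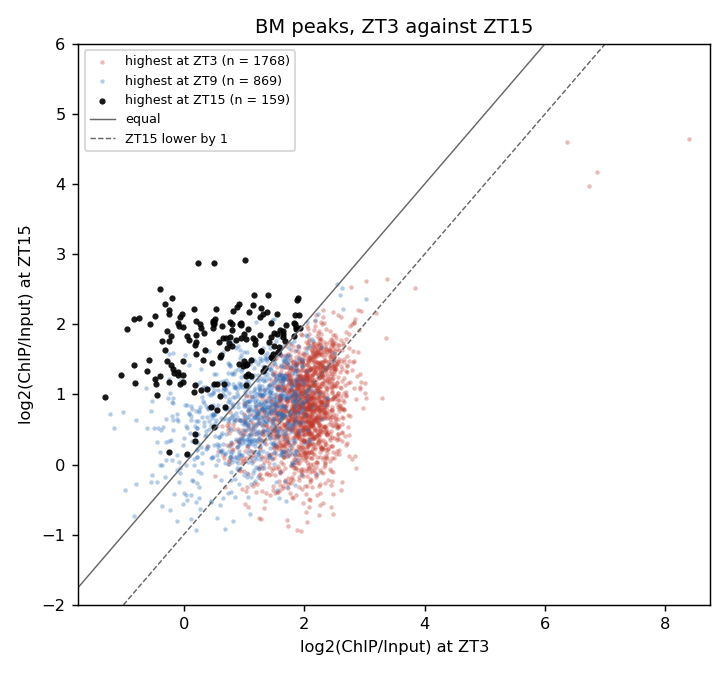
log2(ChIP/Input) at ZT3 (horizontal) against ZT15 (vertical) for each of the 2796 BM peaks, coloured by the time of the highest value. The solid line marks equal values and the dashed line a ZT15 value lower by 1. Of the peaks, 1200 lie on or below the dashed line, 159 have their maximum at ZT15, and 4 peaks stand apart with ZT3 values of 6.36 to 8.40.

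The share of peaks with a ZT3 minus ZT15 difference of at least 1 was larger in BM than in each other list as deposited. It was 42.9% in BM (95% Wilson interval 41.1 to 44.8, counting error only), against 27.2% in MB (25.2 to 29.2), 15.1% in B73 (13.9 to 16.4) and 14.7% in Mo17 (13.3 to 16.3). By Fisher's exact test, two-sided and adjusted over 3 pairs by the Benjamini-Hochberg method, adjusted p was 2.56e-28 against MB, 2.64e-131 against B73 and 7.06e-105 against Mo17. The test compares lists of peaks from 1 pooled value each, and peaks are not replicates of a genotype. After each time point of each list was centred on its median, the sign turned in all 3 pairs, with -4.27 percentage points for BM minus MB, -5.41 for BM minus B73 and -4.18 for BM minus Mo17. The centring subtracts a constant from every peak of a list, so it shows how the share depends on the scale and is no test of the genotypes. The list medians of BM differed by 0.97 between ZT3 and ZT15, against 0.56 in MB, 0.15 in B73 and 0.17 in Mo17. Whether that shift belongs to the genotype or to the ZT15 libraries cannot be told apart with 1 pooled value per time point.

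**Figure D3:**
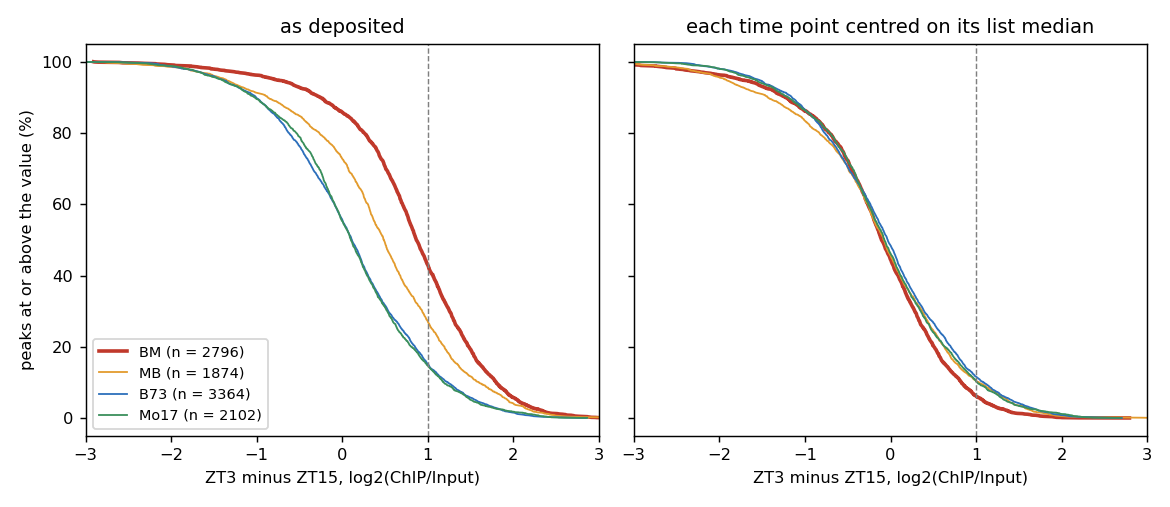
Percentage of peaks at or above each value of ZT3 minus ZT15 log2(ChIP/Input), for BM, MB, B73 and Mo17. On the left the values are as deposited and on the right each time point was centred on the median of its list. The dashed line marks a difference of 1, reached by 42.9% of BM peaks as deposited and by 6.19% after centring.

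The same contrast was seen where peaks overlapped by at least 1 bp. At 1200 BM peaks with a B73 partner, the median ZT3 minus ZT15 difference was 0.82 in BM and 0.12 in B73, and it was larger in BM at 988 of them (82.3%). At 877 BM peaks with a Mo17 partner the medians were 0.79 in BM and 0.06 in Mo17, and at 810 with an MB partner they were 0.81 in BM and 0.46 in MB. The levels differed most at ZT15, where BM was lower, and by less at ZT3, where BM was higher. At the sites shared with B73, the median of BM minus B73 was 0.17 at ZT3, then -0.10 at ZT9 and -0.53 at ZT15. BM minus Mo17 had medians of 0.21, -0.23 and -0.48, and BM minus MB had 0.10, 0.07 and -0.21. After centring, BM had the larger difference at 44.4% of the sites shared with B73, 43.0% of those shared with Mo17 and 39.9% of those shared with MB.

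Sites that BM shared with more lists had smaller swings. The median swing was 1.496 in 1239 peaks with no overlap in any other list, 1.29 in 705 with 1 list, 1.14 in 374 with 2 lists and 0.80 in 478 with all 3 lists. The median ZT3 value ran the other way, at 1.60, 1.83, 1.90 and 2.07. ZT3 was the time of highest signal in 56.7% of the peaks found in BM alone and in 79.3% of those found in every list. Peak width moved with these groups (median 918 bp in peaks of BM alone, 1386 bp in peaks of every list), and its part in the swing was not tested.

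Width itself ordered the swing but not the morning-to-evening drop. From the narrowest to the widest of 4 equal classes of the BM list (699 peaks each, median widths of 623, 896, 1226 and 1952 bp), the median swing was 1.57, 1.39, 1.20 and 1.02. The median ZT3 minus ZT15 difference stayed between 0.84 and 0.90. The share of peaks highest at ZT3 was 50.4%, 57.9%, 67.0% and 77.7%, and the share highest at ZT15 was 9.01%, 7.73%, 3.72% and 2.29%. Spearman's rho between width and swing was -0.33 across the 2796 peaks, and 0.04 between width and the ZT3 minus ZT15 difference. These are descriptions across peaks of the same libraries.

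**Figure D4:**
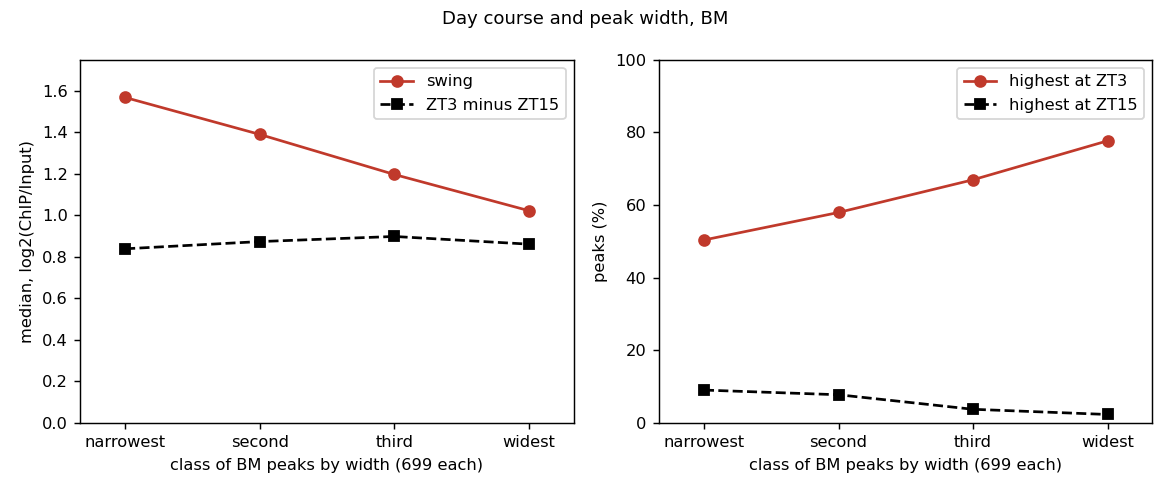
BM peaks in 4 equal classes by width, 699 peaks each, from narrowest to widest. Left, the median swing (circles) and the median ZT3 minus ZT15 difference (squares) in log2(ChIP/Input). Right, the percentage of peaks highest at ZT3 (circles) and at ZT15 (squares). The swing is 1.57 in the narrowest and 1.02 in the widest class, while the difference stays between 0.84 and 0.90.

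Most BM peaks lay inside genes. Of 2796 peaks, 1994 lay inside the assigned gene, 77 covered its start, 27 covered the whole gene, 95 were within 2 kb upstream, 241 were 2 to 10 kb upstream and 362 had no assigned gene. The median ZT3 minus ZT15 difference was 0.94 inside genes and 0.94 at gene starts, 0.84 within 2 kb upstream, 0.77 at 2 to 10 kb upstream and 0.55 in peaks with no gene. Peaks with no gene were also lower throughout, with medians of 1.15, 0.88 and 0.62 at ZT3, ZT9 and ZT15, and 14.6% of them were highest at ZT15 against 3.81% of peaks inside genes. The 10 chromosomes differed little, with a median swing of 1.19 to 1.38 and a median ZT3 minus ZT15 difference of 0.78 to 0.96.

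The 159 peaks highest at ZT15 formed a small set, whose lower values earlier in the day follow from how it was picked. Their median values over the day were 0.61, 0.62 and 1.80, and 25 were below input at both earlier times. Peaks picked by another maximum were likewise low at ZT15, with a median of 0.81 in those highest at ZT3 and 0.75 in those highest at ZT9. The median lead of the 159 over the next highest time was 0.82. The lead was at least 0.5 in 96 peaks, at least 1 in 63 and at least 2 in 8. A strong evening signal was uncommon in BM, since ZT15 reached 2 in 82 peaks, of which 47 were highest at ZT15. After centring on the medians, which evens out the 3 times by its construction, 942 peaks (33.7%) were highest at ZT15.

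Peaks highest at ZT15 lacked a gene more often than the others, in 53 of 159 (33.3%) against 309 of 2637 (11.7%). No other list overlapped 104 of the 159 (65.4%), against 1135 of the 2637 other BM peaks (43.0%). They were also narrower, with a median width of 820 bp against 1054 bp. Of 20 with a partner in MB, 4 were highest at ZT15 in MB, and the counts were 11 of 41 for B73 and 9 of 28 for Mo17. Over all peaks of those lists the shares highest at ZT15 were 13.3% in MB, 26.3% in B73 and 23.0% in Mo17.

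Of the 5 largest leads at ZT15, 4 were of peaks below input at both earlier times. A peak with no gene at chr3:164685131-164685646 had -0.39 at ZT3, -0.06 at ZT9 and 2.51 at ZT15. At chr4:16688113-16688571, also without a gene, the values were -0.56, -0.50 and 2.01. The peak inside GRMZM2G092182 (chr4:163096650-163097117) had 0.51, 0.11 and 2.87. Upstream of GRMZM2G455407 (chr2:151984233-151984623) the values were -0.25, -0.16 and 2.14, and a peak with no gene at chr1:134948867-134949546 had -1.05, -1.03 and 1.28. No other list held a peak at these 5 sites, as was the case for 65.4% of all BM peaks highest at ZT15.

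Among ZT15-highest peaks at genes that RefSeq names, chosen after the values were seen, leads varied widely. The peak upstream of pglcat2 (GRMZM2G179504) had 0.17, 0.27 and 2.21 at ZT3, ZT9 and ZT15. At rpl30 (GRMZM2G027728), a ribosomal protein gene, it had 0.09, 0.40 and 1.78, and at LIM5 (GRMZM2G099328) 0.64, 0.39 and 1.97. The peak at HO1 (GRMZM2G101004), a haem oxygenase of the phytochrome chromophore pathway, had 0.93, 1.37 and 2.01. At DREB2A (GRMZM2G006745), a drought-responsive transcription factor, the values were 1.32, 0.75 and 1.34, so that ZT15 led ZT3 by 0.01 and the call has no margin.

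The 2434 peaks with a gene were assigned to 2063 genes, of which 319 (15.5%) had several peaks. There were 274 genes with 2 peaks, 38 with 3 and 7 with 4. The peaks of these genes spanned a median of 4466 bp with a median gap of 1286 bp. The genes with several peaks were longer than those with 1 peak (median 8723 bp against 5664 bp), and the part of gene length in the count was not tested. All peaks of a gene had the same time of highest signal in 179 of the 319 genes (56.1%, Wilson interval 50.6 to 61.5, counting error only). They shared ZT3 in 148 genes and ZT9 in 31, and in none were all peaks highest at ZT15. Of the 690 peaks at these genes, 68.4% were highest at ZT3 and 2.61% at ZT15. Peaks taken without regard to gene would thus often share ZT3 and seldom ZT15. Whether sharing went beyond this was not tested. Another 122 genes mixed ZT3 and ZT9. With the time points centred on their medians, the share was 34.8%.

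Every peak was higher at ZT3 than at ZT15 in 269 of the 319 genes, and every peak was higher by at least 1 in 62. None of the peaks was higher at ZT3 in 4 genes. Within a gene the ZT3 minus ZT15 differences nonetheless had a median range of 0.62, and the range reached 1 in 100 genes. The extreme, picked after the values were seen, was GRMZM2G017865 on chromosome 4. Its peaks at chr4:15690106-15690911 (2.22, 1.16 and 0.52) and chr4:15691517-15692286 (2.59, 1.24 and 0.92) declined over the day, whereas the peak at chr4:15693806-15694291 had 1.01, 1.02 and 2.92. All 3 lay inside the gene. At GRMZM5G889372 on chromosome 9, a peak inside the gene had 1.91, 2.06 and 0.87 and a peak upstream had -0.20, 1.19 and 2.38.

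Of the 7 genes with 4 peaks, 5 had every peak highest at ZT3 and 2 had maxima at both ZT3 and ZT9. GRMZM5G889138 (chr9:72795479-72801476, plus strand) was uniform, with ZT3 values of 1.95 to 2.13, ZT9 values of 1.59 to 1.67 and ZT15 values of 0.57 to 1.25 in its 4 peaks. GRMZM2G055151 (chr5:209999724-210003004, plus strand) had 1.79 to 2.76 at ZT3, 1.25 to 2.30 at ZT9 and 1.28 to 1.98 at ZT15. At GRMZM2G072938, GRMZM2G350284 and GRMZM2G110865 all 4 peaks were likewise highest at ZT3, and all 12 lay upstream of their genes. GRMZM2G343916 (chr1:111201502-111223745) had its first peak highest at ZT3 (2.69, 2.11 and 1.03) and the other 3 highest at ZT9. GRMZM2G310283 on chromosome 7 had 2 of each kind.

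**Figure D5:**
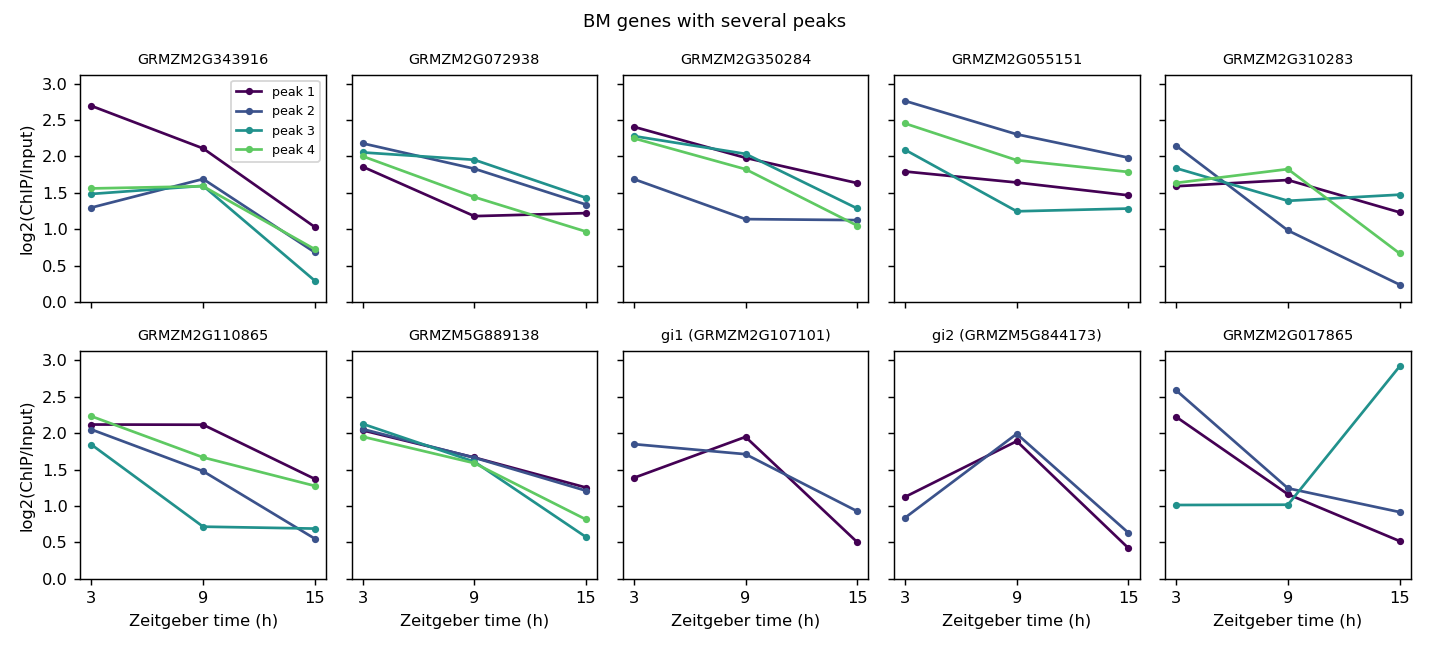
Day course of log2(ChIP/Input), by zeitgeber time in hours, for each BM peak of the 7 genes with 4 peaks, of gi1 and gi2, and of GRMZM2G017865. Lines are single peaks, numbered along the chromosome. At GRMZM2G017865 peak 3 reaches 2.92 at ZT15 while peaks 1 and 2 are at 0.52 and 0.92.

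Peaks also stood together over stretches longer than genes. When BM peaks were chained by gaps of at most 10 kb, 20 neighbourhoods held 5 peaks or more, for a total of 182 peaks. In these the median ZT3 minus ZT15 difference was 0.67 and the median swing 0.72, against 0.88 and 1.35 in the 1830 peaks that stood alone. ZT3 was the highest time in 161 of the 182 (88.5%), and the median ZT15 value was 1.21 against 0.78 in the peaks alone. The neighbourhoods differed in level, and in 6 of the 20 the median ZT15 value was 0.31 to 0.67, under the 0.82 of the whole list. The 25 peaks in chr9:72830009-72945637 had medians of 2.103, 1.63 and 1.17 at ZT3, ZT9 and ZT15, and all 25 were higher at ZT3 than at ZT15. The 19 peaks in chr1:234574002-234668961 had medians of 2.35, 1.88 and 1.58, all highest at ZT3, and covered 75761 of 94960 bp. The 12 peaks in chr1:203882555-203931320 had 1.89, 1.74 and 1.58, the smallest median swing of the neighbourhoods (0.39). The peaks here were wide (median 1448 bp against 1016 bp for those alone), and the part of width was not tested.

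Very few sites stood far above the rest of the list. Of the 2063 genes, 3 had a peak above 6, and the next gene reached 3.37. The median gene had a highest value of 2.04, and 1134 genes (55.0%) reached 2. GRMZM2G066485 led with a peak 2 to 10 kb upstream (chr6:138678780-138680139) at 6.87, 4.68 and 4.17 at ZT3, ZT9 and ZT15. GRMZM2G168077 followed with 6.73, 4.78 and 3.97 (chr8:166826527-166828574) and GRMZM2G020929 with 6.36, 4.51 and 4.60 (chr6:140854235-140855383). All 3 had far upstream peaks that recurred in every list. At GRMZM2G066485 the ZT3 minus ZT15 difference was 2.69 in BM, against 1.95 in MB, 0.99 in B73 and 1.41 in Mo17. At GRMZM2G168077 it was 2.76 in BM, against 1.88, 1.12 and 1.36, and at GRMZM2G020929 it was 1.76 in BM, against 1.82, 1.02 and 1.06 in the same lists.

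The remaining 7 of the 10 strongest genes had highest values of 3.02 to 3.37. GRMZM2G015024 had 3.37, 2.97 and 2.64 at its stronger, upstream peak, and GRMZM2G090126 had 3.03, 2.96 and 2.62, so both stayed high through the day. GRMZM2G028914 had 3.30, 1.23 and 0.95 at a narrow intragenic peak, and GRMZM2G010302 (DIP1) had 3.02, 1.96 and 0.95. GRMZM2G062854 had 3.20, 2.55 and 2.16. GRMZM2G117134 (2.55, 3.21 and 2.58) and GRMZM2G000823 (2.37, 3.08 and 1.39) were highest at ZT9. GRMZM2G000823 is LOS4, a DEAD-box RNA helicase that acts in mRNA export in Arabidopsis.

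Among the clock genes looked up by name, 2 of 4 had BM peaks. The gi1 gene (GRMZM2G107101) had an intragenic peak at chr8:21100525-21103277 with 1.39, 1.95 and 0.50 at ZT3, ZT9 and ZT15, and another at chr8:21105003-21105939 with 1.85, 1.71 and 0.93. The gi2 gene (GRMZM5G844173) had intragenic peaks at chr3:9303737-9304651 with 1.12, 1.89 and 0.42 and at chr3:9306137-9306922 with 0.84, 1.99 and 0.63. In 3 of these 4 peaks the signal was highest at ZT9, and in all 4 it was lowest at ZT15. The ZT3 minus ZT15 differences of 0.21 to 0.92 were all under 1. For gi1, Mo17 had a peak with 0.76, 1.68 and 0.22, and neither MB nor B73 had one. For gi2, MB had 0.19, 1.31 and 0.35 at a peak that overlapped neither BM peak. Mo17 had 0.17, 2.54 and 0.33 at a peak that overlapped only the latter BM peak. No BM peak was assigned to ZmPRR59 or ZmTOC1a, nor to the 3 CCA1 homologs looked up (ZmCCA1b, ZmCCA1a and a MYB-domain gene upstream of it, GRMZM2G175265). The other lists had none for these genes either, except for a Mo17 peak inside GRMZM2G175265.

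Of 9 genes of carbon fixation and starch that the study took up, 4 had BM peaks, 6 in all. Starch synthase II (GRMZM2G126988) had 0.84, 2.04 and 1.30 at one intragenic peak and 2.30, 1.68 and 2.00 at the other, so its peaks differed in shape and ZT9 was in turn the highest and the lowest time. The putative phospholipid-transporting ATPase GRMZM2G398288 had 1.93, 1.99 and 0.49. GRMZM2G427369, named a photosynthetic reaction centre protein, had 2.38, 1.47 and 1.26. GRMZM2G448142, named an ATP synthase beta subunit, had 2.04, 2.098 and 1.61 inside the gene and 1.59, 1.54 and 1.29 upstream. Both of these lie within neighbourhoods of several peaks, on chromosomes 5 and 1. In the inbreds their peaks were highest at ZT15, with 2.13, 1.61 and 2.38 in B73 and 2.24, 1.46 and 2.35 in Mo17 at GRMZM2G427369. In MB both genes were highest at ZT3. GRMZM2G398288 was highest at ZT9 in B73 and Mo17 as in BM, where ZT9 led ZT3 by only 0.06. Its Mo17 peak did not overlap the BM peak and its B73 peak did so only at the edge, so the stretches differ. Starch synthase II had a peak in MB (0.55, 2.33 and 0.24) but none in the inbreds. A photosystem II gene of the list, GRMZM2G394732, had narrow peaks in B73 (4.51, 4.27 and 5.35) and Mo17 (4.27, 4.60 and 5.27), whereas the BM peak at that place was 6784 bp wide and was assigned to GRMZM2G055151, so the levels are not those of the same stretch. The ZT3 minus ZT15 difference was at least 1 in 2 of the 6 BM peaks, and the median was 0.36 against 0.87 over the whole list. The list was chosen by the study on these samples and is not independent evidence of a direction.

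RefSeq gives names to some of the BM genes, and those with a familiar role were grouped after their values were seen, so the groups are descriptions. They were picked by hand and need not hold every named gene of a role. The 5 cellulose synthases, which make cell wall cellulose, were all highest at ZT3, as were 1324 of all 2063 BM genes (64.2%). Their ZT3 minus ZT15 differences ran between 0.60 and 1.76, with a median of 1.11 against 0.87 over the whole list. GRMZM2G111642 (CesA-5) had 2.44, 0.10 and 0.68 and GRMZM2G027723 (CesA-2) had 2.14, 1.80 and 0.38, so that the level was already low at ZT9 in CesA-5 and still high in CesA-2.

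Of 12 picked genes for chromatin proteins, 10 had their highest value at ZT3, against 64.2% of all BM genes, and 2 at ZT9. A ZT3 minus ZT15 difference of at least 1 was listed for 9 of 13 peaks (median 1.39), against 42.9% of all BM peaks. RefSeq names further chromatin genes among the BM genes that were left out. The counts are therefore not shares of the class, and the part of the choice in them was not tested. At the histone deacetylase hda113 (GRMZM2G058573) the signal was 1.95, 1.52 and -0.94 at one peak and 1.86, 1.08 and 0.76 at the other. At hac108 (GRMZM2G044126), a histone acetyltransferase, it was 2.39, 1.94 and 0.43, at SWI3C1 (GRMZM2G340756), a SWI/SNF subunit, 2.57, 0.77 and 0.15, and at the histone chaperone SPT16 (GRMZM5G806358) 2.19, 0.94 and 0.80. Other shapes occurred at BAF60.10 (GRMZM2G143788), another SWI/SNF subunit, with -0.08, 2.09 and -0.25, and at brahma1 (GRMZM2G163849), with 1.06, 1.21 and 0.90. The peak at chr124 (GRMZM2G435541) was lowest at ZT9, with 2.18, 0.63 and 1.46.

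Of 12 picked genes for plastid proteins, 10 were highest at ZT3, against 64.2% of all BM genes, and 2 at ZT9. A difference of at least 1 was listed for 8 of 13 peaks (median 1.39). The ferredoxin-dependent glutamate synthase fgs1 (GRMZM2G036609) had 2.24, 0.99 and 0.76, the sulfite reductase sir (GRMZM2G090338) 2.67, 1.05 and 1.13, and the plastid division gene ARC6 (GRMZM2G060567) 2.07, 1.06 and 0.47. The thylakoid translocase gene TATC (GRMZM2G025123) was highest at midday, with 0.36, 2.00 and 0.42. Some isoprenoid and haem genes also act in plastids but were grouped apart by hand. The plastid counts are therefore not shares of all plastid genes. In the isoprenoid and haem pathways the 6 genes were spread, with 2 highest at each time and a median difference of 0.096. There CLA1 (GRMZM2G019260), which starts the plastid isoprenoid pathway, had 1.38, 1.81 and 0.17, whereas CCD1 (GRMZM2G057243), a carotenoid cleavage dioxygenase, had 1.45, 1.77 and 2.02. Over the whole list 42.9% of peaks had a difference of at least 1, and no group was tested against it.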

How the data were processed

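ZmCCA1 ChIP-seq was carried out on aerial tissues of BM, MB, B73 and Mo17 seedlings in 2 biological replicates per time point (ZT3, ZT9, ZT15). The authors aligned reads to AGPv2 and to a reference-guided Mo17 genome (hybrids to both), kept concordant unique pairs, removed duplicates, sampled libraries down to the smallest, called peaks against input with MACS2 2.0.1, retained those that both replicates held and joined the time points into 1 list. The deposited values are log2 ratios of ChIP to input, 1 per peak and time point. How replicates were combined is not stated, and no read counts are given, so depth is unknown. Differences in precipitation between libraries would enter every value of a time point, and down-sampling does not remove them. Genes were assigned by the authors up to 10 kb from a peak.

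Swing, ZT3 minus ZT15, time of highest value and lead were computed from the values as deposited. Shares were compared by Fisher's exact test with Benjamini-Hochberg adjustment. Wilson intervals are at 95%. Lists were matched by overlap of at least 1 bp. Members, gene lists and tests were chosen with earlier results of these data known. Named were the genes looked up by name with a BM peak, the 5 largest and 5 smallest swings, the 5 largest falls, the 5 largest leads at ZT15, the genes with most peaks (5 planned, 7 because of ties) and the 10 strongest genes. Gene names were matched in RefSeq by identifier for 1290 of 2063 genes. Its table holds no descriptions here, so planned phrase groups could not be formed and names were grouped by hand, with 1 gene not reported here. Alternatives were centring each time point on its median or mean, minimum values of 1.5 and 2, thresholds of 0.5 and 1.5, a lead of 0.5, overlapping peaks or genes only and other ways to rank genes. Omission of ZT15, of neighbourhoods and of narrow peaks was added after seeing the data. Functions were tested on simulated data. Python 3.11.15, numpy 2.4.6, pandas 2.3.3, scipy 1.17.1 and matplotlib were used.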

Additional observations from a re-analysis of the deposited data

Results flagged for a closer look

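The share of peaks with a ZT3 minus ZT15 difference of at least 1 differed between BM and each other list by Fisher's exact test. The test counts peaks of lists made from 1 pooled value per time point, so it compares these lists and not replicates of the genotypes. BM minus MB was 15.8 percentage points, BM minus B73 27.8 and BM minus Mo17 28.2. All 3 differences take the other sign when each time point is centred on the median or the mean of its list.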

How the results depend on the processing

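No paired analysis was possible because the lists hold 1 value per time point with the replicates already combined, and for the same reason no replicate could be left out. Of 61 alternative values, 25 were classed as the same. That class was wide and did not always mean a like size. BM minus MB, for example, was 15.8 percentage points, became 7.54 at a threshold of 1.5 and 21.5 at 0.5, and was classed as the same in both. Centring each time point on its median, then on its mean, gave 1193 and 1244 peaks with a swing of at least 1, 173 and 270 with a ZT3 minus ZT15 difference of at least 1, 942 and 732 highest at ZT15, a median swing of 0.89 and 0.90 and a median difference of -0.11 and 0.0565. With the same centrings, BM minus the other list in the share with a difference of at least 1 was -4.27 and -3.36 percentage points for MB, -5.41 and -3.07 for B73 and -4.18 and -2.47 for Mo17. Median centring left 34.8% of genes with several peaks sharing a time. Of 1356 peaks that reached 2, 1083 (79.9%) had a swing and 752 (55.5%) a difference of at least 1. In the same subset 47 (3.47%) were highest at ZT15. The shares over the whole list were 67.8%, 42.9% and 5.69%. Peaks that reached 2 had a median swing of 1.49 and a median difference of 1.12, and those that reached 1.5 had medians of 1.31 and 0.93. A threshold of 1.5 gave 994 swings and 539 differences, and a threshold of 0.5 gave 1974 differences. Of 1753 peaks with a lead of at least 0.5, 96 (5.48%) were highest at ZT15. Of 1398 peaks wider than the median, 828 (59.2%) had a swing and 590 (42.2%) a difference of at least 1, and 42 (3.00%) were highest at ZT15. The median swing was 1.11 in these peaks and 1.31 when neighbourhoods were left out. Without ZT15, 956 peaks swung by at least 1 and 648 were lower at ZT9 by at least 1. Ranking genes by the mean over their peaks kept 6 of the 10 strongest. Fewer peaks enter each subset, which lowers its counts but not necessarily its shares. The cause of the other shifts was not tested.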

Other observations

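Groups of regulatory and protein-turnover genes that RefSeq names had BM peaks of mixed time of day. They were picked by hand after their values were seen, need not hold every named gene of a role, and were not tested. Over the whole list, 64.2% of genes were highest at ZT3 and 42.9% of peaks had a ZT3 minus ZT15 difference of at least 1. Of 10 kinase and light-sensing genes, 7 were highest at ZT3 and 3 at ZT9, and 5 of 12 peaks had such a difference, both near the shares of the whole list. The blue-light receptor phot1 (GRMZM2G001457) had 1.92, 1.55 and 1.49 at ZT3, ZT9 and ZT15 at one peak and 1.72, 1.48 and 0.90 at its neighbour. TOR (GRMZM2G049342), a growth-regulating kinase, had 2.12, 0.85 and 0.80, and the calcium-dependent kinase cdpk1 (GRMZM2G115518) had 2.64, -0.46 and 1.36, with its lowest value at midday.

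Of 10 protein-turnover genes, 6 were highest at ZT3 and 4 at ZT9, and 7 of 12 peaks had a difference of at least 1. The ubiquitin ligase scaffold Cullin-1 (GRMZM2G166089) had 2.59, 1.07 and 0.84, and the SUMO ligase gene Siz1c (GRMZM2G173770) had 2.31, 1.26 and 0.35. Cullin-4 (GRMZM2G704093) had -0.12, 1.91 and 0.13, so that only the midday value stood above input by more than 1. The protease gene lon1 (GRMZM2G109560) had one peak with 0.74, 2.24 and 1.17 and another with 1.38, 0.41 and 0.06.

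The broadest BM peak spanned 20314 bp upstream of GRMZM2G012877 on chromosome 1 (chr1:234719105-234739418), with 2.26, 1.95 and 1.67 at ZT3, ZT9 and ZT15. A narrow peak of 617 bp upstream of the same gene had 2.43, 0.71 and 0.44.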
